A study of Mus musculus with 3 samples.

Results

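Integrins are the adhesion receptors by which macrophages and osteoclasts hold on to other cells and to bone, and 10 of their genes were followed here in the RNA of apoptotic bodies (ABs). The genes are Itgav, Itgb3, Itgb5, Itgam, Itgal, Itgb2, Itgb1, Itga4, Itga5 and Itga6. They were chosen by gene symbol, as subunits known from macrophages and osteoclasts, and every mRNA transcript whose GENCODE M21 symbol was one of the 10 was taken. All 10 were listed, with 38 transcripts of 56651 in the mRNA table, and they are 10 of its 15815 genes. The reads of all transcripts of a gene were summed. Of the 10 genes, 9 had at least 20 reads over the 3 libraries together, the minimum used for counts over genes, and Itgb3 did not.

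The ABs came from bone marrow macrophages (BMM-ABs), preosteoclasts (pOC-ABs) and mature osteoclasts (mOC-ABs) of 11-week-old C57BL/6 mice, with 1 library of each. Per the labels, BMMs were grown from marrow with 50 ng/mL M-CSF, the macrophage growth factor, and pOCs and mOCs were then grown from BMMs with 30 ng/mL M-CSF and 100 ng/mL RANKL, the osteoclast differentiation factor, over 24 h and over at least 72 h. Alendronate, a bisphosphonate, was added at 500 μM for 12 h in all 3 cultures to make them shed ABs, according to the labels. The methods of the study instead name staurosporine, a kinase inhibitor, and a longer culture for mOCs. The titles name cells and the description of the series names ABs, and ABs were taken to be the source of the RNA. No group has a replicate, so a difference between libraries cannot be set against a spread between samples, and no p-value is given. The culture of a group cannot be told apart from its library, and neither can fewer ABs of one cell type from less RNA per AB.

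An integrin is a pair of an alpha and a beta chain. The beta 2 chain (Itgb2) pairs on leukocytes with alpha M (Itgam, CD11b) to form the complement receptor Mac-1 and with alpha L (Itgal) to form LFA-1. The alpha v chain (Itgav) pairs with beta 3 (Itgb3) to form the vitronectin receptor, which is known as the main integrin by which the osteoclast attaches to bone, and with beta 5 (Itgb5) on its precursors. The beta 1 chain (Itgb1) pairs with alpha 4, alpha 5 and alpha 6 (Itga4, Itga5 and Itga6), which bind VCAM-1, fibronectin and laminin.

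For several of these genes the libraries differed in the transcript to which the reads had been assigned, and the stretches by which those transcripts differ are shown first. Each is written 5′ to 3′ from the GENCODE M21 transcript that holds it, in GRCm38, with the stretch in capitals and the 20 neighbouring bases of the transcript on each side in lower case. All of them lie within coding exons on the + strand. The first is an exon of 245 bases of Itgb2 (chr10:77559479-77559723) that Itgb2-201 has and Itgb2-204 skips. The next are the exons of 62 and 46 bases (chr2:83761868-83761929 and chr2:83763652-83763697) that Itgav-201 has and Itgav-202 skips. The last is a segment of 29 bases at the edge of an exon (chr16:33947853-33947881) that Itgb5-202 has and Itgb5-201 lacks.
Itgb2 exon of 245 bases: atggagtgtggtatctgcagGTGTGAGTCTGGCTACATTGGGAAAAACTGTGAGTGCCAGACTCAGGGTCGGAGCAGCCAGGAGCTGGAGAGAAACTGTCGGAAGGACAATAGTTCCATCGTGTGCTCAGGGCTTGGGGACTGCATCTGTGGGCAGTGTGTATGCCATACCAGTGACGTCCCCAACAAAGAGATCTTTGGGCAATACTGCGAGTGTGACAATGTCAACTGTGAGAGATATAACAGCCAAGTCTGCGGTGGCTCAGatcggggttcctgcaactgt
Itgav exon of 62 bases: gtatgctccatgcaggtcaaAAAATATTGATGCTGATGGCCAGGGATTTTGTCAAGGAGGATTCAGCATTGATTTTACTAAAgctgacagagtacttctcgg
Itgav exon of 46 bases: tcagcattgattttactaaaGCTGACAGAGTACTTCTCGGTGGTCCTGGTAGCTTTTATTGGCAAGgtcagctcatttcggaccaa
Itgb5 segment of 29 bases: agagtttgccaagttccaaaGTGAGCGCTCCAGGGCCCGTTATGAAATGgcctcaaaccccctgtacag
Without its exon, Itgb2-204 is annotated as a target of nonsense-mediated decay, the pathway that removes mRNAs with an early stop codon, and its coding sequence is 1440 bases against 2310 in Itgb2-201. Both Itgav transcripts are annotated as coding, with 3132 bases in Itgav-201 and 3024 in Itgav-202. The segment of Itgb5 changes the end of the coding sequence, which is 2397 bases with it and 2448 without it.

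The mRNA table held 7387317 to 9100082 reads per library. Levels are given as reads per 1000000 reads of that table (RPM). The upper limit set for a count of 0 was 3 reads, which are 0.330, 0.406 and 0.389 RPM in BMM-, pOC- and mOC-ABs. Together the 10 genes held 2592, 1457 and 1494 RPM in BMM-, pOC- and mOC-ABs, which is 0.259%, 0.146% and 0.149% of the mRNA reads. Itga4 alone held 71.1%, 73.4% and 71.7% of the reads of the 10. Without Itga4 the sums were 750.3, 388.4 and 422.8 RPM, so the BMM-AB library was the highest with and without it.

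The cells behind the ABs were checked by marker genes. Of 11 osteoclast markers 10 were listed, and their summed level was 502, 682 and 2020 RPM in BMM-, pOC- and mOC-ABs, with Calcr, the calcitonin receptor, not listed. Acp5, the osteoclast acid phosphatase, had 88, 292 and 2157 reads. A single other marker held 282.0, 375.2 and 1098 RPM of the sums. Of the 10 markers, 8 were more than 2-fold higher in mOC-ABs than in BMM-ABs, where 4.11% of all genes were. Clcn7 (85.4, 49.5 and 76.2 RPM) and Tnfrsf11a (72.2, 52.3 and 78.3 RPM) were not. All 8 macrophage markers were listed, with summed levels of 5750, 2740 and 1790 RPM. Lyz2 held 3170, 1334 and 411.4 RPM of these sums. Of the 7 with at least 20 reads, all but Cd68 were more than 2-fold lower in mOC-ABs than in BMM-ABs, where 8.93% of all genes were. Cd68 had 729.4, 649.0 and 656.1 RPM. Csf1r (1085, 357.4 and 506.4 RPM) was higher in mOC-ABs than in pOC-ABs. The markers of other cells that carry integrins were low. None of 9 neutrophil markers was listed, and of 7 platelet markers 2 were listed, at a sum of 0.271 to 1.21 RPM. Of 6 T cell markers 2 were listed, of which Lck had 62 to 77 reads and Cd3d 0 to 4. Of the markers of B cells 3 of 5 were listed (0.135 to 0.779 RPM), of erythroid cells 1 of 7 (0.130 to 0.541), of stromal cells and osteoblasts 4 of 9 (3.50 to 5.28), of endothelium 3 of 5 (1.62 to 6.10) and of dendritic cells 2 of 5 (2.30 to 3.76).

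Levels of different genes were compared only per length, by the authors' FPKM summed over the transcripts of a gene. In BMM-ABs the order was Itga4 (256.3), Itgb2 (110.8), Itgam (44.1), Itga5 (33.5), Itgb1 (20.5), Itgb5 (17.0), Itgav (10.9), Itgal (4.82), Itga6 (0.204) and Itgb3 (0.114). Only the last pair of neighbours had overlapping 95% counting intervals. In pOC-ABs Itgav (8.24) stood above Itgb5 (5.48), the order was otherwise as in BMM-ABs, and no neighbours overlapped. In mOC-ABs Itga4 (127.5) and Itgb2 (71.7) still came first, followed by Itga5 (18.2), Itgb1 (15.8), Itgav (13.1), Itgam (6.63), Itgb5 (5.82), Itga6 (0.554), Itgal (0.373) and Itgb3, listed at 0. There the intervals of Itga5 and Itgb1, of Itgam and Itgb5, and of Itga6 and Itgal overlapped. For Itgb3, with 0 reads, no interval per length was computed. Itgam thus had rank 3 in BMM-ABs and pOC-ABs and rank 6 in mOC-ABs.

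**Figure D1:**
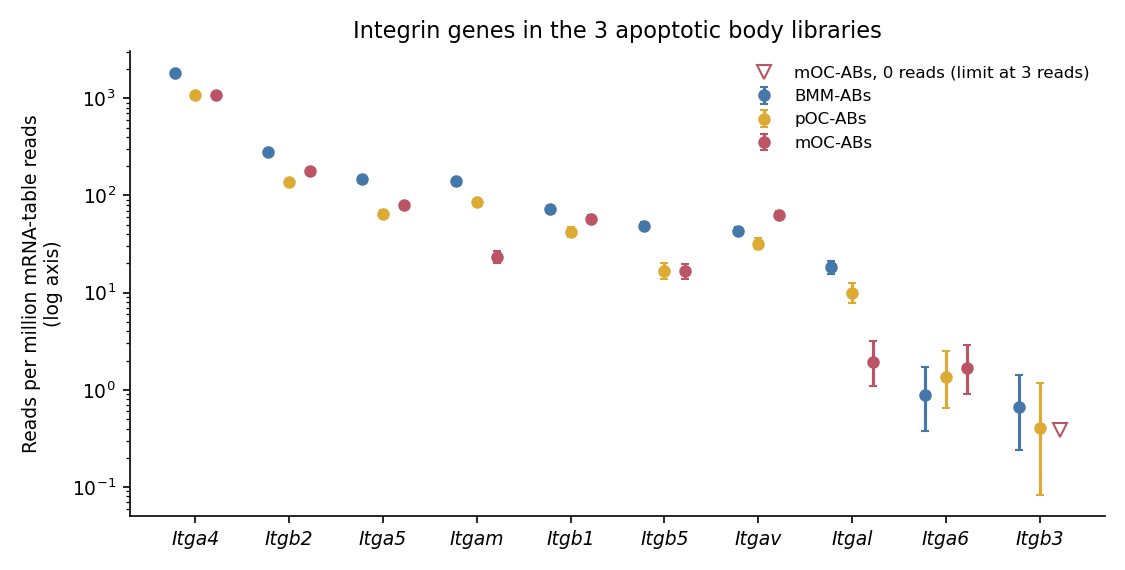
Level of each of the 10 integrin genes in each library, in reads per 1000000 reads of the mRNA table (RPM) on a log axis, with exact Poisson 95% intervals that cover counting error only. Points are single libraries, BMM-ABs in blue, pOC-ABs in yellow and mOC-ABs in red, and the open triangle marks 3 reads for Itgb3 in mOC-ABs, where 0 reads were counted. Itga4 lies between 1069 and 1842 RPM, and Itgam and Itgal are lowest in mOC-ABs.

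Counts of genes use a limit of 2-fold on the ratio of RPM. From BMM-ABs to pOC-ABs, 3 of the 9 genes with at least 20 reads were more than 2-fold lower, Itgb5, Itga5 and Itgb2, and 0 were more than 2-fold higher. Over all 12691 genes with at least 20 reads, 6.03% were more than 2-fold lower and 4.81% higher in that comparison. In mOC-ABs against BMM-ABs, 3 of 9 were more than 2-fold lower, Itgal, Itgam and Itgb5, and 0 higher, where 8.93% of all genes were lower and 4.11% higher. In mOC-ABs against pOC-ABs, 2 of 9 were more than 2-fold lower, Itgal and Itgam, and 0 higher, where 6.78% of all genes were lower and 3.47% higher. The median log2 ratio of the 9 genes was -0.78 in pOC-ABs against BMM-ABs, where the median of all genes was -0.02. It was -0.78 in mOC-ABs against BMM-ABs, where that of all genes was -0.05, and 0.31 in mOC-ABs against pOC-ABs, where that of all genes was -0.05. The first comparisons share the BMM-AB library. Intervals of ratios below are exact binomial (Clopper-Pearson) 95% intervals of the reads of the libraries compared. They cover counting error only, compare those libraries and not the conditions, and reads are not independent molecules since no molecular identifiers are described.

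**Figure D2:**
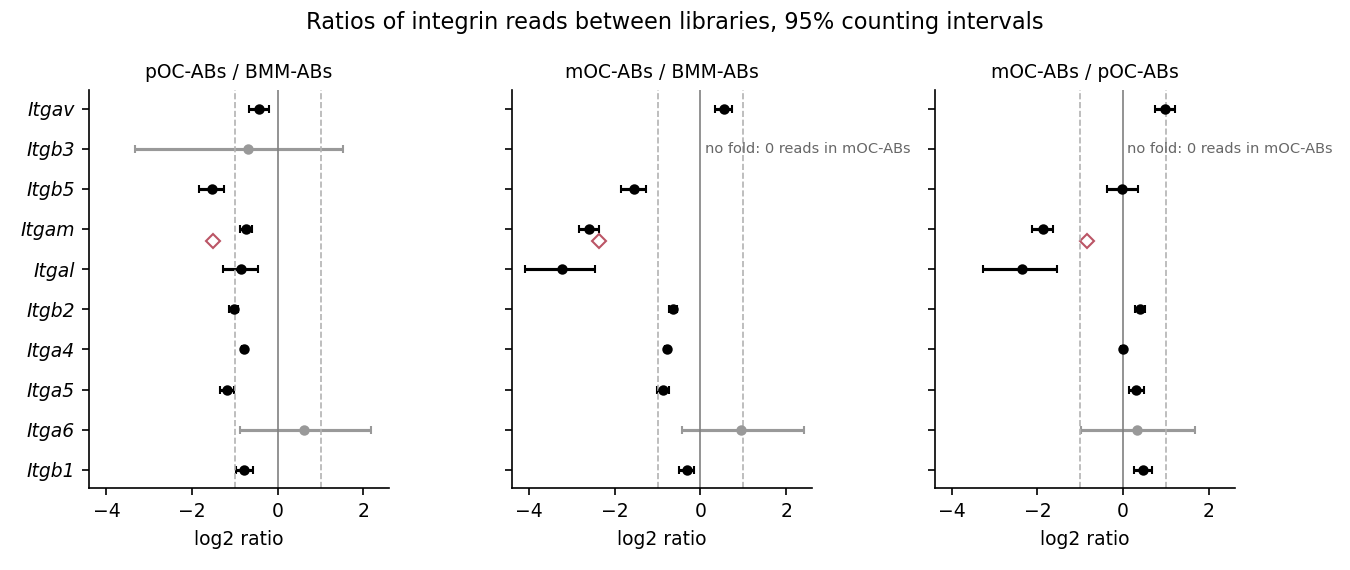
Log2 ratio of RPM for each integrin gene in pOC-ABs against BMM-ABs, mOC-ABs against BMM-ABs and mOC-ABs against pOC-ABs, with exact binomial 95% intervals, from 1 library each. Dashed lines mark 2-fold, grey points are the genes with the fewest reads (Itgb3 and Itga6), and red diamonds give Itgam with the reads of the overlapping gene Gm49368 added. Itgal and Itgam, on their own reads, lie furthest to the left in both comparisons of mOC-ABs.

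Itgam and Itgal, the alpha chains of Mac-1 and LFA-1, had the lowest ratios of mOC-ABs to BMM-ABs among the 9 genes with at least 20 reads. Itgam (ENSMUSG00000030786, chr7:128062640-128118491, + strand) had 1292, 630 and 180 reads in BMM-, pOC- and mOC-ABs, or 142, 85.3 and 23.4 RPM. Each library was below the one before it in the order of differentiation. Itgam was 1.66-fold lower in pOC-ABs than in BMM-ABs (1.51 to 1.83), 6.08-fold lower in mOC-ABs than in BMM-ABs (5.20 to 7.14) and 3.65-fold lower in mOC-ABs than in pOC-ABs (3.09 to 4.33). Itgal (ENSMUSG00000030830, chr7:127296260-127335138, + strand) had 166, 74 and 15 reads, or 18.2, 10.02 and 1.95 RPM. It had the same order of libraries. It was 1.82-fold lower in pOC-ABs than in BMM-ABs (1.38 to 2.43), 9.37-fold lower in mOC-ABs than in BMM-ABs (5.52 to 17.1) and 5.15-fold lower in mOC-ABs than in pOC-ABs (2.93 to 9.65). Of the 7 macrophage markers with at least 20 reads, 6 were also more than 2-fold lower in mOC-ABs than in BMM-ABs. In pOC-ABs against BMM-ABs 2 were, Csf1r and Lyz2. Of all genes, 8.93% and 6.03% were lower in these comparisons. The part of the markers in the values of Itgam and Itgal was not tested.

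The reads of Itgam depend on how they were divided with another gene. Gm49368 is annotated on the same strand (chr7:128062683-128128160), and 29 of the 30 exons of its transcript are identical to Itgam exons. It was listed with 924, 0 and 186 reads in BMM-, pOC- and mOC-ABs, which is against 1292, 630 and 180 for Itgam itself. With these reads added, Itgam had 2216, 630 and 366 reads, or 243.5, 85.3 and 47.5 RPM. The BMM-AB library stayed the highest and the mOC-AB library the lowest. The sum was 2.86-fold lower in pOC-ABs than in BMM-ABs (2.61 to 3.12), which passes the 2-fold limit that Itgam alone did not. It was 5.13-fold lower in mOC-ABs than in BMM-ABs (4.59 to 5.74). In mOC-ABs against pOC-ABs it was 1.80-fold lower (1.58 to 2.05), which no longer passes the limit. The share of these reads that came from each gene is uncertain.

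The beta chain of these receptors was nearer to BMM-ABs in mOC-ABs than Itgam and Itgal were. Itgb2 (ENSMUSG00000000290, chr10:77530252-77565708, + strand) had 2527, 1006 and 1379 reads, or 277.7, 136.2 and 179 RPM. The mOC-AB library lay between the others. Itgb2 was 2.04-fold lower in pOC-ABs than in BMM-ABs, with an interval of 1.89 to 2.20 that reaches below 2. Its log2 ratio there was -1.03, and with coding transcripts only (-0.82) or FPKM (-0.93) it did not pass the limit of 2-fold. It was 1.55-fold lower in mOC-ABs than in BMM-ABs (1.45 to 1.66), and in mOC-ABs it was 1.31 times its level in pOC-ABs (1.21 to 1.43). Per length, the FPKM of Itgb2 was 2.26, 1.68 and 10.2 times the sum of Itgam and Itgal in BMM-, pOC- and mOC-ABs. With the FPKM of Gm49368 added to that sum it was 1.58, 1.68 and 5.96 times. The FPKM of Itgb2 in these ratios was 110.8, 58.25 and 71.71. Of this Itgb2-204, the annotated target of nonsense-mediated decay, gave 51.15, 21.35 and 9.514.

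The lower total of Itgb2 in mOC-ABs than in BMM-ABs lay in a transcript that is not annotated as making the full protein. Itgb2-201, the full-length coding transcript, had 1224, 543 and 1097 reads in BMM-, pOC- and mOC-ABs. Itgb2-204, which skips the exon of 245 bases printed above, had 1219, 413 and 192 reads. The share of Itgb2 reads on Itgb2-204 was 48.2% (46.3 to 50.2, Wilson 95% interval), 41.1% (38.1 to 44.1) and 13.9% (12.2 to 15.9) in BMM-, pOC- and mOC-ABs. Coding transcripts held 50.8%, 58.5% and 83.1% of the Itgb2 reads. Counted on coding transcripts alone, the log2 ratio of Itgb2 in mOC-ABs against BMM-ABs was 0.08, where over all transcripts it was -0.63. Reads were divided by the authors' software among transcripts that share most of their exons, so the counts per transcript are estimates and their intervals leave out the error of that division. Over all 34650 transcripts with at least 20 reads, 36.1% were more than 2-fold higher or lower in pOC-ABs than in BMM-ABs, 37.9% in mOC-ABs than in BMM-ABs and 35.3% in mOC-ABs than in pOC-ABs. For the 28 integrin transcripts with at least 20 reads the numbers were 16, 15 and 12, so transcripts passed the limit more often than genes did, throughout the table and among the integrins.

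**Figure D3:**
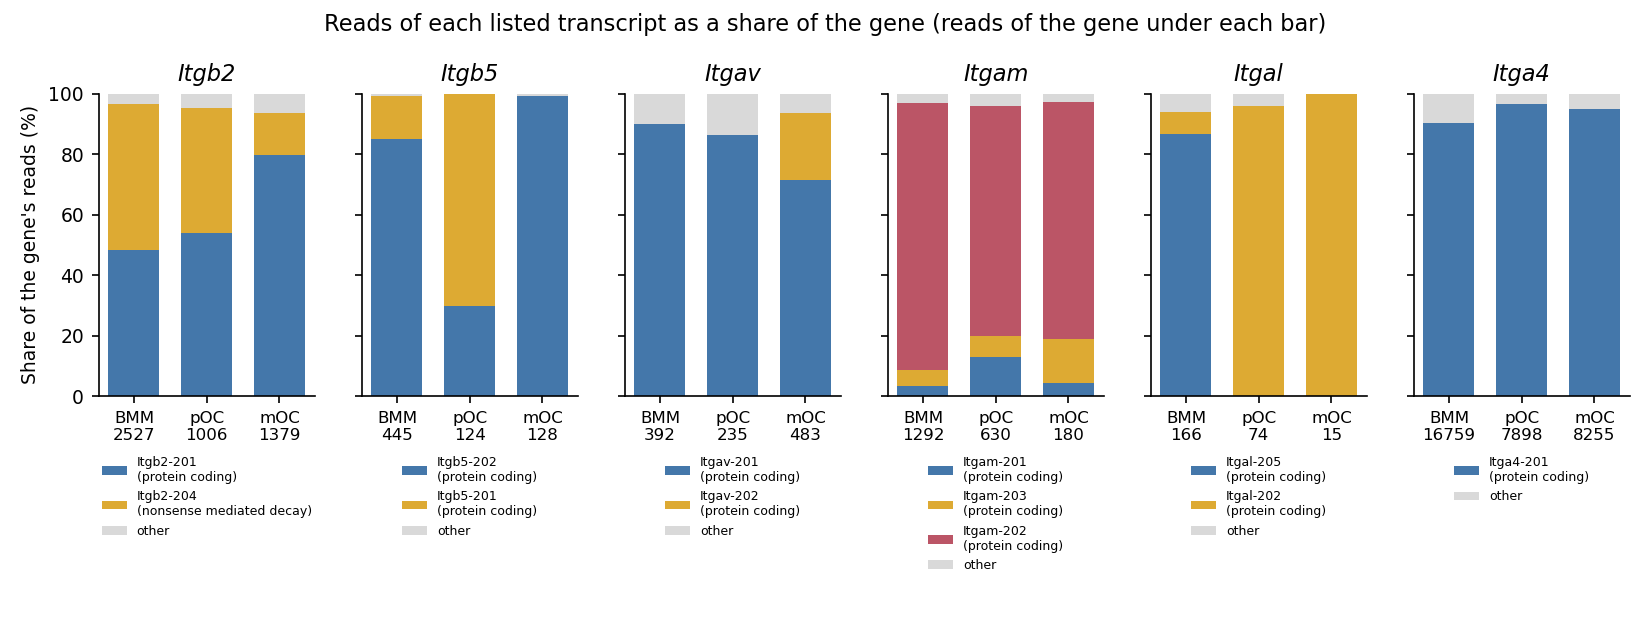
Share of the reads of each gene assigned to each transcript with at least 10% of them in at least 1 library, in percent, for Itgb2, Itgb5, Itgav, Itgam, Itgal and Itga4, with the number of reads of the gene under each bar and the annotated type of each transcript in the key. Grey is the sum of the other transcripts. Itgb2-204 is 48.2% of Itgb2 in BMM-ABs and 13.9% in mOC-ABs, and Itgav-202 has reads in mOC-ABs alone, at 22.2%.

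Within Itgam and Itgal the assigned transcripts also differed. Itgam-202, a coding transcript that lacks 2 exons of 141 and 213 bases, held 88.3%, 76.2% and 78.3% of Itgam reads in BMM-, pOC- and mOC-ABs. Itgam-201, which has both exons, had 46, 82 and 8 reads, and Itgam-203 had 66, 43 and 26. Of Itgal, Itgal-205 had 144, 0 and 0 reads, while Itgal-202 had 12, 71 and 15. All 3 listed Itgal transcripts are annotated as coding, so the reads of Itgal changed transcript between BMM-ABs and pOC-ABs with no change of type. In the circRNA table, 1 of 1372 circular RNAs was hosted by one of the 10 genes, an exonic circle of Itgam (chr7:128080246-128086072) with 2, 0 and 0 junction reads.

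The chains of the vitronectin receptors went different ways. Itgav (ENSMUSG00000027087, chr2:83724397-83806916, + strand) had 392, 235 and 483 reads in BMM-, pOC- and mOC-ABs, or 43.1, 31.8 and 62.7 RPM. It was the only one of the 9 genes with at least 20 reads whose level in mOC-ABs was above BMM-ABs by more than its counting interval, at 1.46-fold (1.27 to 1.67). It was 1.35-fold lower in pOC-ABs than in BMM-ABs (1.15 to 1.60) and 1.97-fold higher in mOC-ABs than in pOC-ABs (1.68 to 2.31), just under the limit of 2-fold. Scaled by median-of-ratios factors in place of the table total, the last log2 ratio was 1.02 in place of 0.98, which passes the limit. With the upper quartile it was 0.99 and with FPKM 0.66, which do not. In mOC-ABs against BMM-ABs the log2 ratio of Itgav was 0.54, and with FPKM it was 0.25. Of the reads of Itgav in mOC-ABs, 107 (22.2%, 18.7 to 26.1) were assigned to Itgav-202, which skips the pair of exons printed above and had 0 reads in BMM-ABs and pOC-ABs. Itgav-201 had 352, 203 and 345 reads. Its log2 ratio of mOC-ABs to BMM-ABs was 0.21, with an interval of -0.007 to 0.43 that includes no difference. The higher level of Itgav in mOC-ABs than in BMM-ABs therefore rests largely on the reads assigned to Itgav-202.

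Itgb3 (ENSMUSG00000020689, chr11:104608000-104670476, + strand), whose protein is a classical mark of osteoclasts, was close to absent. It had 6, 3 and 0 reads in BMM-, pOC- and mOC-ABs, or 0.659 and 0.406 RPM and, for mOC-ABs, at most 0.389 RPM at 3 reads. The count was therefore not higher in the library with the most osteoclast marker reads. These few reads leave the level uncertain, and the interval of mOC-ABs against pOC-ABs reached up to 2.32-fold higher. Against 3 reads, the count behind the upper limit of a single library, it was at least 1.69-fold lower in mOC-ABs than in BMM-ABs, on 6 reads, and the exact binomial interval of the ratio included no difference. Of the 2 transcripts annotated for Itgb3, 1 was listed. The lncRNA table holds a NONCODE transcript in the last part of the gene (chr11:104669262-104670469), and it had 0, 2 and 1 reads, so the end of the gene was low in that table too. In mOC-ABs the partner Itgav had 483 reads and Itgb3 0. Because of the 0 no genes could be ranked by likeness to Itgb3.

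Itgb5 (ENSMUSG00000022817, chr16:33829665-33949338, + strand), the other beta partner of alpha v among the 10, had 445, 124 and 128 reads in BMM-, pOC- and mOC-ABs, or 48.9, 16.8 and 16.6 RPM. Both RANKL libraries lay below BMM-ABs and close to each other. Itgb5 was 2.91-fold lower in pOC-ABs (2.38 to 3.58) and 2.94-fold lower in mOC-ABs (2.41 to 3.61) than in BMM-ABs. The ratio of mOC-ABs to pOC-ABs was 0.990 (0.767 to 1.28). Per length, the FPKM of Itgav was 0.644, 1.51 and 2.24 times that of Itgb5 in BMM-, pOC- and mOC-ABs. Within Itgb5 the form with the segment of 29 bases printed above, Itgb5-202, had 378, 37 and 127 reads, and the form without it, Itgb5-201, had 64, 87 and 0. The share of Itgb5-201 was 14.4% (11.4 to 17.9) in BMM-ABs, 70.2% (61.6 to 77.5) in pOC-ABs and 0% in mOC-ABs, on 128 reads, with a Wilson upper limit of 2.91%, where 3 reads are 2.34%. The pOC-AB library was the one in which this form was most of the gene.

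Itga4, which pairs with beta 1 or beta 7, was the most abundant of the 10 in every library. Itga4 (ENSMUSG00000027009, chr2:79255426-79333123, + strand) had 16759, 7898 and 8255 reads in BMM-, pOC- and mOC-ABs, or 1842, 1069 and 1071 RPM. The RANKL libraries were 1.72-fold lower than BMM-ABs, with intervals of 1.68 to 1.77 in pOC-ABs and 1.67 to 1.77 in mOC-ABs, and the log2 ratio of mOC-ABs to pOC-ABs was 0.00 (-0.04 to 0.05). The coding Itga4-201, of 9767 bases, had 15119, 7617 and 7834 reads, or 90.2%, 96.4% and 94.9% of the gene. Itga4-203, a transcript annotated without a coding sequence, had 682, 57 and 38 reads, or 4.07%, 0.722% and 0.460% of the gene. The last part of Itga4 is overlapped on the other strand by Cerkl, of which the overlapping transcript had 6 to 16 reads. Per length, the FPKM of Itga4 was 12.5, 10.9 and 8.07 times that of Itgb1 in BMM-, pOC- and mOC-ABs. The shorter transcripts without a coding sequence weigh more in this FPKM than in the reads. The coding Itga4-201 alone had an FPKM of 170.1, 105.6 and 104.1, and the coding Itgb1-201 18.6, 10.9 and 15.0. The order of BMM-ABs and pOC-ABs in this ratio thus depends on the transcripts counted.

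Itga5 (ENSMUSG00000000555, chr15:103344286-103366763, - strand), the fibronectin receptor chain, had 1335, 477 and 615 reads, or 146.7, 64.6 and 79.8 RPM. It was 2.27-fold lower in pOC-ABs than in BMM-ABs (2.04 to 2.53) and 1.84-fold lower in mOC-ABs than in BMM-ABs (1.67 to 2.03), and in mOC-ABs it was 1.24 times its level in pOC-ABs (1.09 to 1.40). Itgb1 (ENSMUSG00000025809, chr8:128685654-128733200, + strand), the shared beta chain, had 657, 310 and 445 reads, or 72.2, 42.0 and 57.8 RPM. In this it had the order of Itga5, with pOC-ABs lowest and mOC-ABs in between. It was 1.72-fold lower in pOC-ABs than in BMM-ABs (log2 -0.78, -0.98 to -0.59) and 1.25-fold lower in mOC-ABs than in BMM-ABs (1.11 to 1.41), and in mOC-ABs it was 1.38 times its level in pOC-ABs (1.19 to 1.60). A single coding transcript held at least 96.6% of Itga5 and at least 98.3% of Itgb1 in each library. Itga6 (ENSMUSG00000027111, chr2:71745616-71858416, + strand), a laminin receptor chain, had 8, 10 and 13 reads, or 0.879, 1.35 and 1.69 RPM. These counts do not separate the libraries, since the ratio of mOC-ABs to BMM-ABs was 1.92 with an interval of 0.737 to 5.34. In BMM-ABs all 8 reads were on the coding Itga6-201, and in pOC-ABs 6 of 10 were on Itga6-206, which has no coding sequence.

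Over the 10 genes, coding transcripts held 87.4%, 92.9% and 94.0% of the reads in BMM-, pOC- and mOC-ABs. Targets of nonsense-mediated decay held 5.48%, 3.99% and 2.10%, and these reads were mostly those of Itgb2-204.

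Of the other integrin chains few were listed. Of 12 further alpha chains 5 were listed and 4 had at least 20 reads, and of 4 further beta chains 2 were listed, both with at least 20 reads. Itgb7, the other partner of alpha 4, had 155, 79 and 224 reads in BMM-, pOC- and mOC-ABs, or 17.0, 10.7 and 29.1 RPM. It was 1.71 times as high in mOC-ABs as in BMM-ABs (log2 0.77, 0.47 to 1.08) and 2.72 times as high as in pOC-ABs, which is the same order of libraries as Itgav. Itgax (CD11c), another partner of beta 2, had 64, 33 and 37 reads, and Itga7, a laminin receptor chain, had 58, 54 and 35. In mOC-ABs against BMM-ABs the intervals of both included no difference. Of the 6 further chains with at least 20 reads, 0 were more than 2-fold higher than in BMM-ABs in either RANKL library. In pOC-ABs 1 was more than 2-fold lower, Itgb4, where 6.03% of all genes were lower and 4.81% higher. In mOC-ABs 3 were lower, Itga2b, Itga10 and Itgb4, with 31, 47 and 33 reads over the 3 libraries. There 8.93% of all genes were lower and 4.11% higher.

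Genes that act on integrins from inside the cell, most of them to switch integrins on, were next. Of 14 such genes 11 had at least 20 reads, and 0 were more than 2-fold higher or lower in pOC-ABs than in BMM-ABs. In mOC-ABs against BMM-ABs 0 were higher and 1 was lower, Dab2, an adaptor that binds beta chain tails, with 1320, 843 and 209 reads and a ratio 5.35-fold lower. By the same limit 4.81% of all genes were higher and 6.03% lower in pOC-ABs, and 4.11% higher and 8.93% lower in mOC-ABs. The medians of this list were -0.35 and -0.10 on the log2 scale. Talin (Tln1), which binds the beta tail directly, had 18184, 11019 and 11669 reads, and kindlin-3 (Fermt3) had 3723, 2488 and 3611.

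Among 25 genes of 26 listed that carry the signal from integrins into the cell, 2 were more than 2-fold higher and 0 lower in pOC-ABs than in BMM-ABs, and 2 were higher and 2 lower in mOC-ABs than in BMM-ABs. Over all genes, 4.81% were higher and 6.03% lower by this limit in pOC-ABs, and 4.11% higher and 8.93% lower in mOC-ABs. The medians of this list were 0.06 in both comparisons. Src, the kinase that acts with alpha v beta 3 in the osteoclast, had 118, 178 and 962 reads in BMM-, pOC- and mOC-ABs, or 13.0, 24.1 and 124.8 RPM. It was the gene of this list furthest from BMM-ABs, 9.63-fold higher in mOC-ABs (log2 3.27, 2.99 to 3.56), while Itgb3 had 0 reads in the same library. Bcar1, the scaffold p130Cas, had 62, 126 and 186 reads and was 2.50-fold and 3.54-fold higher in pOC-ABs and mOC-ABs than in BMM-ABs. Lims1 (PINCH), a partner of integrin-linked kinase, had 595, 1105 and 964 reads and was 2.29-fold and 1.91-fold higher. Fgr, a Src-family kinase of myeloid cells, went the other way with 553, 325 and 132 reads, 3.55-fold lower in mOC-ABs than in BMM-ABs.

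Of 31 integrin ligands and counter-receptors 17 were listed and 12 had at least 20 reads. In pOC-ABs against BMM-ABs 0 of 12 were more than 2-fold higher and 3 lower, where 4.81% of all genes were higher and 6.03% lower. In mOC-ABs against BMM-ABs 1 was higher and 3 were lower, where 4.11% of all genes were higher and 8.93% lower. The medians of the ligands were -0.65 and -0.53 on the log2 scale. Spp1 (osteopontin), a ligand of alpha v and alpha 4 integrins, had 12438, 4804 and 8410 reads and was 2.10-fold lower in pOC-ABs and 1.25-fold lower in mOC-ABs than in BMM-ABs. C3, whose cleaved form is a ligand of Mac-1, had 123, 38 and 15 reads and was 2.63-fold lower in pOC-ABs and 6.94-fold lower in mOC-ABs than in BMM-ABs. It had the same order of libraries as Itgam. Adam15, a surface protease with an integrin-binding domain, had 1987, 780 and 688 reads and was 2.07-fold lower in pOC-ABs and 2.45-fold lower in mOC-ABs. The related Adam9, with 885, 382 and 366 reads, was the other lower gene in mOC-ABs. Tgm2, a transglutaminase that binds fibronectin and beta 1 integrins, was the 1 higher gene, with 250, 307 and 764 reads and a ratio of 3.61. Vcam1, Vtn and Ibsp were not listed, and Fn1 had 2 to 4 reads.

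**Figure D4:**
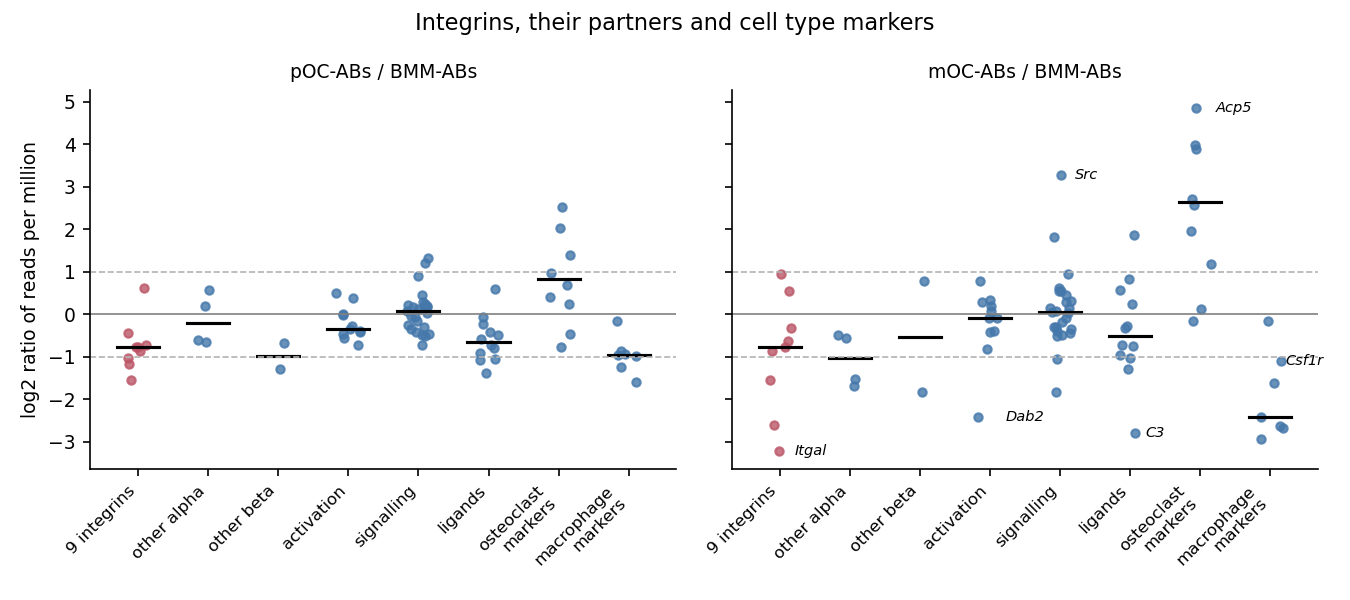
Log2 ratios of RPM against BMM-ABs for the 9 integrin genes with at least 20 reads (red), the further alpha and beta chains, the genes of integrin activation, signalling and ligands, and the osteoclast and macrophage markers (blue), for pOC-ABs at left and mOC-ABs at right, from 1 library each. Each point is a gene with at least 20 reads, black bars are medians and dashed lines mark 2-fold, and Oscar, with 0 reads in BMM-ABs, is counted in its median at 3 reads and not drawn. In mOC-ABs Src reaches 3.27 while the median of the integrins is -0.78 and that of the osteoclast markers is 2.64.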

How the data were processed

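RNA of ABs was sequenced from paired-end libraries of poly-T selected RNA. The submitters' processing notes name FastQC, HISAT2, StringTie and GRCm38, with no versions. In the mRNA and lncRNA tables the authors deposited a read count and an FPKM for each transcript, and in the circRNA table a count of junction reads per circle. The FPKM of mRNAs divides the count by the transcript length and the total of the mRNA table, and for 37 of the 38 integrin transcripts the length it implies was within 1% of the annotated length. The lncRNA FPKM and the scaled circRNA values, 6 per-library columns, were not used.

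Counts were summed per GENCODE M21 gene symbol and divided by the total of the mRNA table. Genes and transcripts with fewer than 20 reads over the 3 libraries were left out of counts and medians, so the medians set out for 10 genes cover 9. With 1 library per group no test was run. Ratios carry exact binomial and levels exact Poisson 95% intervals, shares carry Wilson intervals, and a count of 0 was set to 3 reads for folds. The ratio code was tested on simulated data. Transcripts with at least 10% of the gene's reads in a library are named, as are further chains with at least 100 reads and, in each list of partners, the genes more than 2-fold from BMM-ABs with at least 100 reads, at most 4 per list. Itgb3 likeness (5 genes) could not be computed. Talin, kindlin-3, Adam9, Itga2b, Itga10, Itgb4, Acp5, Csf1r, Lyz2, Lck and Cd3d were named after their values were seen. So were Clcn7, Tnfrsf11a, Cd68 and the ligands that were not listed or had few reads. 1 gene of the lists is not reported here by name. The 10 genes and all lists were chosen with earlier results of these data known. Alternatives were the total of the mRNA and lncRNA tables, median-of-ratios, TMM or upper-quartile scaling, FPKM, coding transcripts only, a pseudocount of 1 RPM, no count minimum and a limit of 1.5-fold. Adding Gm49368 to Itgam (reads and FPKM) and including Itgb3 at 3 reads were chosen after seeing the data. Python 3.11.15, pandas 2.3.3, numpy 2.4.6, scipy 1.17.1, matplotlib 3.10.9, R 4.3.3 and edgeR 4.0.16 (TMM factors only) were used.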

Additional observations from a re-analysis of the deposited data

Results flagged for a closer look

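The lncRNA table, of which the text above uses only 1 transcript in Itgb3, lists transcripts within or across several of the other integrin genes. Over the 3 libraries the lncRNA reads summed to 1180 reads for Itga4 (662, 246 and 272 in BMM-, pOC- and mOC-ABs, from 4 lncRNAs), 124 for Itgb1 (102, 14 and 8), 70 for Itgav (33, 11 and 26), 23 for Itgb5 (15, 8 and 0) and 23 for Itga6 (11, 9 and 3). These sums lay above 3 reads, the limit set for a count of 0 in a single library. In mOC-ABs alone the reads in Itgb5 and Itga6 did not. A lncRNA in Itgam had 2, 0 and 1 reads. In Itgb1 the lncRNA reads were 11.2, 1.90 and 1.04 RPM of the mRNA total, while the mRNA reads of the gene were 72.2, 42.0 and 57.8 RPM. Whether these reads belong to separate RNAs or to the integrin transcripts was not tested.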

How the results depend on the processing

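With the total of both tables all genes shifted by -0.20 on the log2 scale in pOC-ABs and by -0.10 in mOC-ABs against BMM-ABs, and the medians of the integrins became -0.98 and -0.88. With FPKM these medians were -0.93 and -0.88, and that of mOC-ABs against pOC-ABs was 0.0892. The median of mOC-ABs against BMM-ABs was -0.72 with median-of-ratios factors, -0.73 with TMM, -0.74 with the upper quartile and -0.71 with coding transcripts only, and that of pOC-ABs against BMM-ABs was -0.86 with Gm49368 added to Itgam. With FPKM 1 gene, Itga6, was more than 2-fold higher and 4 lower in each comparison with BMM-ABs. Itga4 was newly lower in both (-1.05 and -1.01), Itgal in pOC-ABs (-1.32), and Itgb2 in pOC-ABs was not (-0.93). In pOC-ABs against BMM-ABs 4 genes were lower with the total of both tables or with Gm49368 added, and 2 with coding transcripts only. At 1.5-fold, 1 gene was higher and 7 lower in pOC-ABs, and 1 higher and 6 lower in mOC-ABs, against BMM-ABs. Against pOC-ABs, mOC-ABs had 1 gene higher with the total of both tables, median-of-ratios factors, TMM or the limit of 1.5-fold, 2 with coding transcripts only, and 1 lower with Gm49368 added. The shares of all genes past the limit are given above for the main scaling at 2-fold only. The counts under these other settings, among them those at 1.5-fold, therefore have no share of all genes to be set against. Of 252 recomputed log2 ratios of single genes, 243 kept their sign and 15 changed side of the 2-fold limit. Some of the 252 could not change. These are all ratios without a count minimum, and those of genes other than Itgam with Gm49368 added. In mOC-ABs against BMM-ABs Itgal ranged from -3.69 to -2.71, Itgam from -2.74 to -2.36 and Itgb5 from -1.66 to -1.499. No paired analysis was possible because each group has 1 library, and the counts of Itgb3 and Itga6 (9 and 31 reads in all) are too few to separate libraries. The cause of these changes was not tested.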
